A study of Mus musculus with 6 samples.

Results

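Cells build the bases of RNA and DNA either from small precursors (de novo synthesis) or by recovering finished bases and nucleosides (salvage). De novo synthesis and the recovery of bases draw on phosphoribosyl pyrophosphate (PRPP), the activated ribose to which bases are attached. Purines are assembled on PRPP ring by ring, and pyrimidines are made as a free ring that is attached later. Ribonucleotide reductase then turns ribonucleotides into the deoxynucleotides used for DNA. Dividing lymphoid cells depend strongly on these routes, and enzymes of the pathway are the targets of antimetabolite drugs used against lymphoblastic leukaemia. The genes of these routes were followed here in a mouse model of acute lymphoblastic leukaemia, pre-B cells driven by the BCR-ABL1 fusion kinase that the Philadelphia chromosome encodes. They were chosen by name: 37 symbols were listed and 35 were found on the array among 19938 genes named by a single symbol. Adss2 is a synonym of Adss in RefSeq, so both names stand for 1 gene, and Impdh2 is not analysed here.

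RNA was profiled on 6 Affymetrix arrays, 3 in each of 2 groups. All cells were of strain C57BL/6 and homozygous for floxed Inpp5d (Inpp5d fl/fl), the gene of the lipid phosphatase SHIP1. Every sample, control or not, received 0.5 µM 4-hydroxytamoxifen for 2 days, and the cells profiled were puromycin resistant. One group had been transduced with PMIP-CRE-ERT2, which carries a tamoxifen-activated Cre recombinase, and the control group with PMIP-ERT2, which carries the tamoxifen-binding domain without Cre. No group had Cre without floxed alleles and none went without tamoxifen, so effects of Cre activity and of recombination at Inpp5d cannot be told apart, and separate cultures are not stated for the arrays of 1 group. If they shared a culture, p-values measure only technical spread.

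In the arrays labelled Cre-ERT2, Inpp5d itself did not fall, with log2 values of 13.37, 13.34 and 13.34 against 13.20, 13.21 and 13.17 in the controls (difference 0.16 ± 0.041, SE, limma adjusted p = 0.0545). The sources used here do not place its probe set inside or outside the deleted part; outside it, the probe set checks nothing. Groups are therefore named by their labels, and every difference is Cre-ERT2 labelled arrays minus the ERT2 control arrays. Across probe sets, Pearson's r of the third array labelled Cre-ERT2 was 0.9967, 0.9963 and 0.9942 with controls 3, 1 and 2. With its own group's first and second arrays it was 0.9938 and 0.9950. Those first and second arrays correlated at 0.9923 with each other and at 0.9927 and 0.9941 with control 3. The third array was thus closer to controls 3 and 1 than to its own group. The first and second were each closest to the third, and closer to control 3 than to each other. Over all genes tested, the third lay within the range of the controls in 40.1%, and the first and second in 26.1% and 19.4%. For the 35 nucleotide synthesis genes these shares were 25.7% for the third and 25.7% and 14.3% for the others. Results are also given without the third array, and counts without each of the others. Of the markers on the array, 11 of 11 for pre-B cells passed the filter on dim genes, as did 5 of 13 for myeloid, 5 of 10 for T and NK, 3 of 4 for erythroid and 8 of 9 for stromal cells; levels of different probe sets are not comparable. Mean log2 values of the pre-B markers ran from 12.63 to 12.68 in the controls and 12.65 to 12.70 in the arrays labelled Cre-ERT2, and 1 of them, Dntt, the terminal transferase of early lymphocytes, was higher (0.33 ± 0.055, SE, limma adjusted p = 0.0176). Of the tested genes listed as markers of other cells, the macrophage lysozyme gene Lyz2 was higher (0.79 ± 0.099, SE). Cd2, from the T and NK list, was lower (-0.64 ± 0.053). The other 4 tested genes of that list had positive differences without a call. The 8 tested stromal markers also all had positive differences (0.059 to 0.23) without a call. Mean marker values ran from 7.46 to 7.51 in the controls and 7.61 to 7.68 in the arrays labelled Cre-ERT2 for myeloid cells, and from 8 to 8.08 and 8.11 to 8.29 for stromal cells. For T and NK cells they ran from 7.29 to 7.38 and 7.33 to 7.47, and for erythroid cells from 8.96 to 9.02 and 9 to 9.11. Dntt, Lyz2 and Cd2 were singled out after their values were seen, and the part of these markers in the results below was not tested.

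Of the 35 nucleotide synthesis genes, 5 fell in the arrays labelled Cre-ERT2, 30 did not pass and 0 rose (limma, Benjamini-Hochberg adjusted p under 0.05 over 14953 genes). The 5 were Ctps, Samhd1, Ppat, Dut and Prps1, and each fell by less than 1.3-fold. They make up 14.3% of the group, where 4.13% of all genes tested were lower and 3.5% higher (7.62% in either direction). At an unadjusted p under 0.05, 10 of the 35 were lower and 0 higher. The share of all genes under that unadjusted limit was not counted. Unadjusted counts here and below therefore have no background beside them and are description only. All 35 genes passed the filter on dim genes, with mean log2 values from 9.44 to 13.46 against a limit of 7.35. The median log2 difference of the 35 was -0.067, against 0.026 over all genes tested, and 28 of the 35 (80%) had a negative difference, against 43.4% of all genes. In 16 genes (45.7%) all 3 arrays labelled Cre-ERT2 lay below all 3 controls, against 17.7% of all genes tested. In 3 (8.57%) they lay above, against 20.7%. The 35 are brighter than most genes: the median gene of the group was brighter than 87.4% of all genes tested. With the test run again on only the genes above the 50th percentile of level, 10.1% of those genes were called lower. In that fit 7 of the 35 (20%) were called lower. It has its own adjustment, so its shares are not comparable with the 14.3% and 4.13% above. The part of level in the shares above was not tested. In RNA from a whole culture, fewer cells of a kind and less RNA per cell cannot be told apart.

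**Figure D1:**
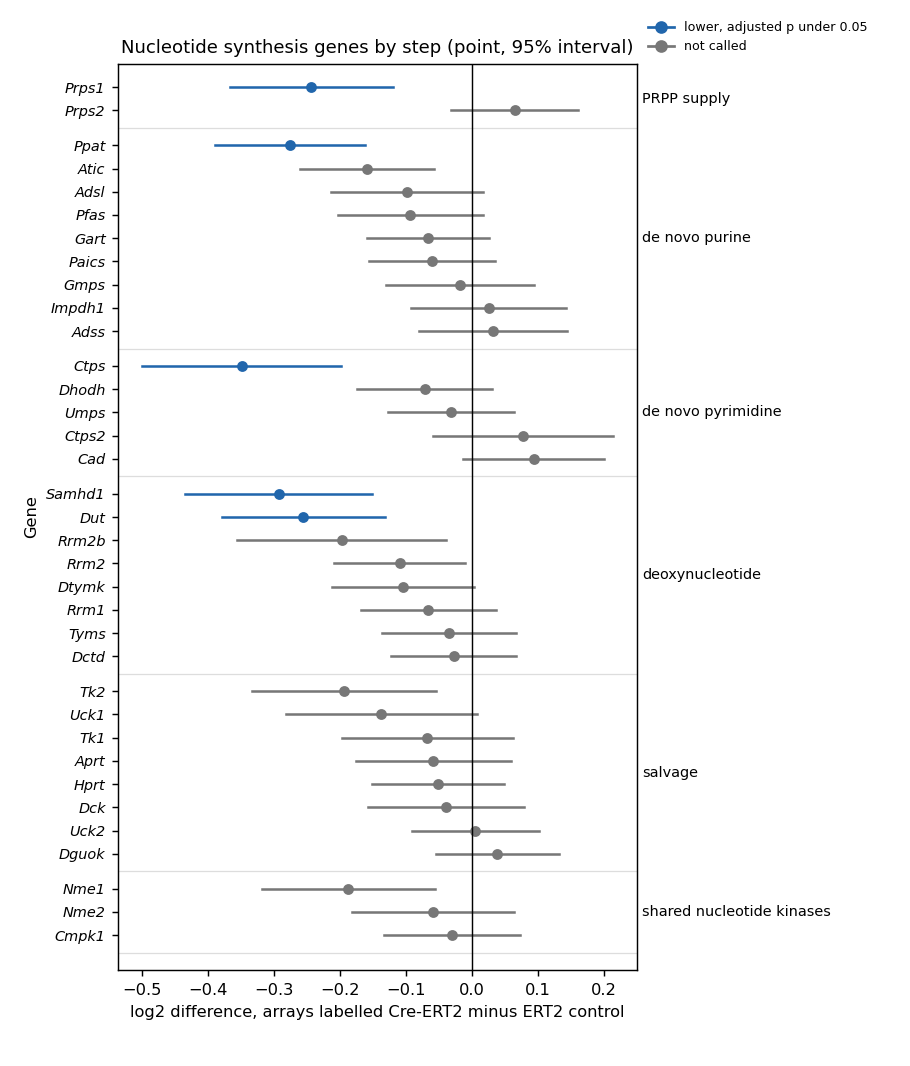
Log2 difference between the arrays labelled Cre-ERT2 and the ERT2 control arrays (x axis) for each of 35 nucleotide synthesis genes (y axis), grouped by step; points are estimates from 3 arrays a group and lines are 95% intervals of the limma fit. The 5 blue genes, Prps1, Ppat, Ctps, Samhd1 and Dut, passed an adjusted p under 0.05, all on the lower side, and the intervals of most others include 0.

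The count rested on having all arrays, and the count over all genes moved as well. Without ERT2 control array 1, 2 or 3, or without the first array labelled Cre-ERT2, limma called 0 of the 35 genes. Of all genes, 0.776%, 1.3%, 2.32% and 0.91% were called in these fits, in either direction. At an unadjusted p under 0.05, 7, 10, 10 and 10 of the 35 were lower. Without the second array labelled Cre-ERT2 limma called 2 (5.71%, Ppat and Ctps), where 3.51% of all genes were called. Without the third it called 8, and all these calls were lower. Those 8 are the 5 genes plus Atic, Nme1 and Tk2, and make up 22.9% of the group where 9% of all genes were called lower. In each of these fits 1 group holds 2 arrays. Restricting the test to genes above the 50th percentile of level (9969), where 10.1% were lower, gave 7 of 35 (20%): the same 5 with Atic and Nme1. The deposited values had medians over all probe sets of 8.21, 8.19 and 8.23 in the controls. In the arrays labelled Cre-ERT2 these were 8.37, 8.32 and 8.24, above every control. Centring each array on its median shifted the differences of all genes downward (median -0.077). It called 12 of 35 lower, where 18.7% of all genes were lower. Calls and signs of small differences therefore depend on this scaling. With the replicate number as a block limma called 0 of the 35, with 9 lower at an unadjusted p under 0.05. Of all genes, 0.669% were called lower in that fit. The labels do not say whether the numbers pair samples. Loess and quantile normalization between arrays each called the same 5 genes.

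**Figure D2:**
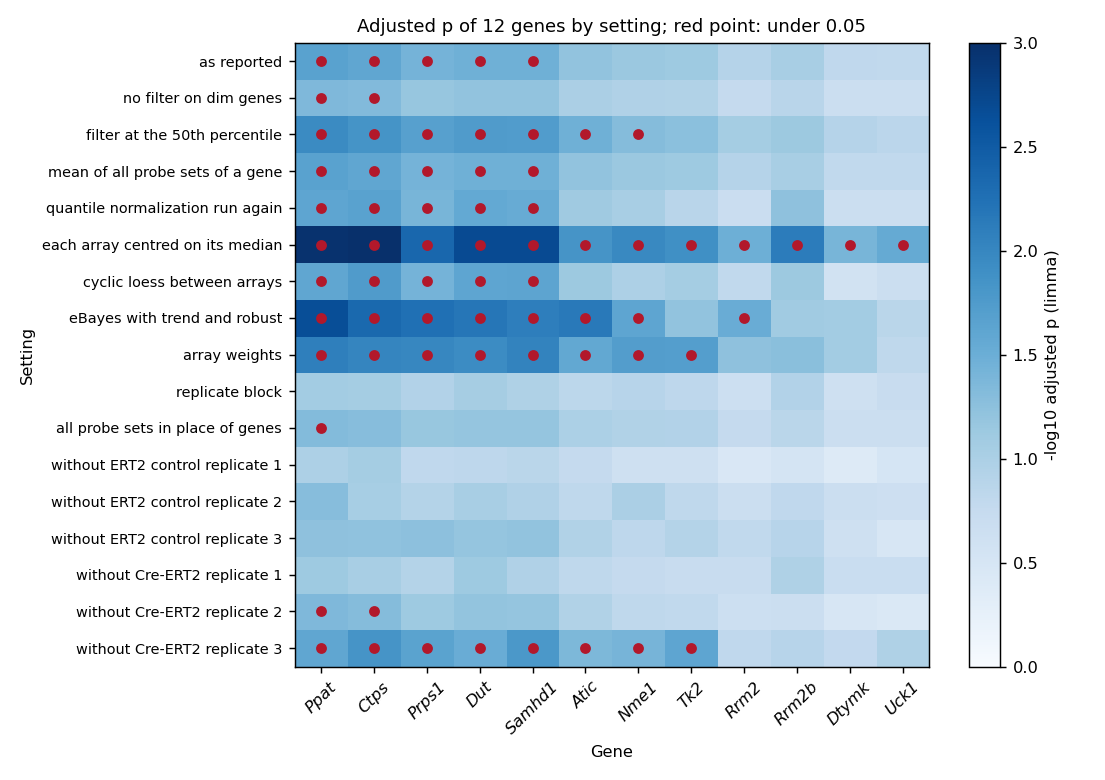
Adjusted p (limma, on a -log10 colour scale) of 12 nucleotide synthesis genes (x axis) under each setting (y axis); red points mark values under 0.05. The top row is the result as reported, with 5 genes called; the genes shown are all those called in at least 1 setting. Rows that leave out an ERT2 control array or the first array labelled Cre-ERT2 hold no red point, and the row without the third array labelled Cre-ERT2 holds 8.

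PRPP is made by the synthetases Prps1 and Prps2, both X-linked. Prps1 fell. The arrays labelled Cre-ERT2 read 11.66, 11.70 and 11.79 (log2) and the controls 11.99, 12 and 11.89. The groups did not overlap, with the third array labelled Cre-ERT2 nearest to the controls. The difference was -0.24 ± 0.054 (SE, n = 3 per group), or 1.18-fold lower (limma adjusted p = 0.0375). Its isoenzyme Prps2 had log2 values of 12.97, 12.96 and 12.93 against 12.88, 12.88 and 12.91, slightly above the controls on every array (0.064 ± 0.042), and did not pass (adjusted p = 0.297, 95% interval -0.032 to 0.16). Prpsap2, which encodes a protein associated with the synthetases, had a difference of -0.19 and did not pass (adjusted p = 0.0512).

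De novo purine synthesis begins with Ppat, the amidophosphoribosyltransferase that commits PRPP to the pathway, and Ppat was the only 1 of 9 purine genes tested that passed. Log2 values of 11.42, 11.40 and 11.40 in its Cre-ERT2 labelled arrays stood against 11.67, 11.62 and 11.76 in the controls. The 3 values of the arrays labelled Cre-ERT2 lay close together (SD 0.014) and below every control. Ppat fell by 0.28 ± 0.050 (SE) on the log2 scale, or 1.21-fold (limma adjusted p = 0.0222), and of the 35 genes it kept its call in the most settings, 9 of 10 other settings of filter, scaling or model. The exception was the fit with the replicate number as a block.

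In the mouse genome (GRCm38.p6) Ppat and Paics, which encodes a later enzyme of the same route, lie head to head on chromosome 5, with annotated starts 276 bases apart and 5′ ends that overlap: the stretch between the starts lies downstream of both. Paics had log2 values of 13.43, 13.41 and 13.44 against 13.47, 13.51 and 13.48. These too lay below all controls, but by 0.061 ± 0.042 (SE), which did not pass (adjusted p = 0.315); whether the 2 neighbours differed in response was not tested. The RefSeq promoter windows of these neighbours, of which Ppat fell, are shown with that of Prps1, the PRPP synthetase gene that fell. The Ppat and Paics windows lie on the outer sides of their starts and do not overlap. Each runs from 250 bases before to 50 bases after the start, 5′ to 3′ on the gene's own strand. Capitals mark matches on either strand to the E-box CACGTG, to the E2F-type motif TTTNNCGC or to the CCAAT box; no matches overlap in these windows.
Ppat (chr5:76951529-76951828, minus strand): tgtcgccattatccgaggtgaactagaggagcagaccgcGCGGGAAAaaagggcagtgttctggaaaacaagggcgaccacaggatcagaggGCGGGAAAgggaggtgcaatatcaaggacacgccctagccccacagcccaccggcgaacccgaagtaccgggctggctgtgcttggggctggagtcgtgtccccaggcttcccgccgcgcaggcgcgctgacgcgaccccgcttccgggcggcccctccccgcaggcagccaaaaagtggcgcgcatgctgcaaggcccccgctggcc
Paics (chr5:76951052-76951351, plus strand): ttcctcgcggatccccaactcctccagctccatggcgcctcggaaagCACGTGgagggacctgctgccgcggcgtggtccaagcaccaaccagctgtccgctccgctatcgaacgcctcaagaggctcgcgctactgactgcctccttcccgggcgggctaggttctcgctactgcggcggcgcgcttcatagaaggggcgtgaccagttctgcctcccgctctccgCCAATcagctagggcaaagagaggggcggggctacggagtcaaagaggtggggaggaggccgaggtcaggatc
Prps1 (chrX:140456353-140456652, plus strand): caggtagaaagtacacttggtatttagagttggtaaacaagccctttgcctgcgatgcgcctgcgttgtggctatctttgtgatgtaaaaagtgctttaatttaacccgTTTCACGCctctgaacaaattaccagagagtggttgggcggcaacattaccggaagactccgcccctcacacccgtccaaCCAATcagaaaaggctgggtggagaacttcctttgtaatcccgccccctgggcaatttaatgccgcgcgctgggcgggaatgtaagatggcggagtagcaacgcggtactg
The Ppat window holds the E2F-type motif beginning 211 and 158 bases before the start, as GCGGGAAA in both cases. The Paics window holds the E-box 203 and the CCAAT box 23 bases before the start, and the Prps1 window the E2F-type motif 141 and the CCAAT box 61 bases before it. The windows of Ctps, Dut and Samhd1 hold none of these letters. Over the 41 windows of the 32 genes with an entry, the E-box was present in 6 (14.6%), against 7.15% of all 32851 windows in the table. The E2F-type motif was also present in 6 (14.6%), against 5.17%, and the CCAAT box in 11 (26.8%), against 37.4%. The 5 genes with an E-box were Atic, Dtymk, Nme1, Paics and Tyms, none of which passed the expression test, and those with the E2F-type motif were Nme1, Ppat, Prps1, Prps2 and Tyms. A match is a description of letters and not a binding site.

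The other purine enzymes differed less. Atic, which encodes the enzyme of the last steps to inosine monophosphate (IMP), came nearest to the threshold. Its log2 values were 12.85, 12.89 and 12.93 against 13.03, 13.08 and 13.05, with no overlap. The difference of -0.16 ± 0.044 (SE) did not pass (limma adjusted p = 0.0605), and passed without the third array labelled Cre-ERT2 (-0.18, adjusted p = 0.0426). Gart, whose protein carries out several early steps, had a small gap between tightly grouped values, 12.49, 12.49 and 12.48 against 12.54, 12.56 and 12.56 (-0.067, adjusted p = 0.263). Pfas (-0.094) and Adsl (-0.099), which encode the enzyme that makes formylglycinamidine ribotide and adenylosuccinate lyase, had overlapping groups.

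Beyond IMP the route branches to guanine and adenine nucleotides, and no branch gene passed. Impdh1, which encodes IMP dehydrogenase of the guanine branch, had a difference of 0.025 with a 95% interval from -0.092 to 0.14. Gmps, which encodes GMP synthetase, had -0.019 (-0.13 to 0.094), and Adss, which encodes adenylosuccinate synthase of the adenine branch, 0.031 (-0.081 to 0.14). In all 3 the groups overlapped, and their signs turned in other settings. Over the 9 purine genes the median difference was -0.067, with 7 negative.

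Among the 5 genes of de novo pyrimidine synthesis, Ctps, 1 of 2 genes for the synthase that turns UTP into CTP, had the largest difference of all 35 genes. Controls gave log2 values of 10.73, 10.88 and 10.78, and the arrays labelled Cre-ERT2 10.42, 10.35 and 10.56. The groups did not overlap, and the third array labelled Cre-ERT2 was again the nearest to the controls. Ctps fell by 0.35 ± 0.066 (SE) on the log2 scale, or 1.27-fold (limma adjusted p = 0.0251), and by 0.41 without that array (0.0145). The isoenzyme gene Ctps2 had values of 11.80, 11.68 and 11.66 against 11.63, 11.72 and 11.57. These overlapped, and the difference of 0.078 ± 0.060 did not pass (95% interval -0.059 to 0.21).

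None of the 3 genes for enzymes upstream of CTP synthase passed. Cad, whose protein carries out the first steps and is the point of control of the route, had log2 values of 11.78, 11.75 and 11.81 against 11.64, 11.68 and 11.74. All 3 lay above the controls, and the difference of 0.094 ± 0.047 (SE) did not pass (adjusted p = 0.189); after centring the arrays it was -0.0087. Dhodh, the mitochondrial dehydrogenase gene (-0.072), and Umps, whose protein makes uridine monophosphate (-0.032), did not pass either; in both, all 3 arrays labelled Cre-ERT2 lay just below the controls.

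**Figure D3:**
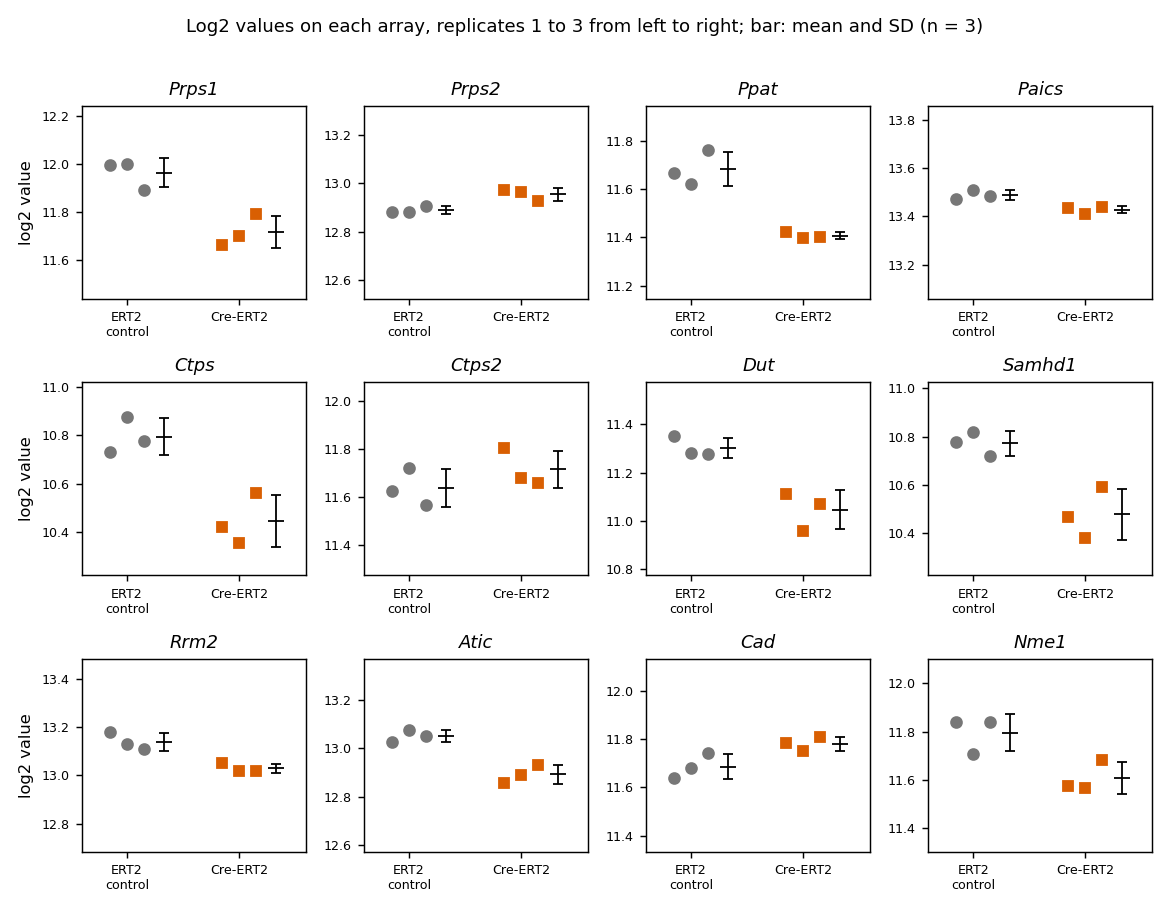
Log2 values (y axis) of 12 nucleotide synthesis genes on each array, with ERT2 control arrays as grey circles and arrays labelled Cre-ERT2 as orange squares, replicates 1 to 3 from left to right in each group; bars give the mean and SD (n = 3), and each panel spans the same 0.8 log2 units. Prps1, Ppat, Ctps, Dut and Samhd1 are the genes that fell, and the third Cre-ERT2 square is, of these, the highest of its group in Prps1, Ctps and Samhd1.

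All 8 deoxynucleotide genes had negative differences, and 2 passed, both for enzymes that take deoxynucleotides apart. Samhd1 encodes a hydrolase that removes the triphosphate from deoxynucleotides and so lowers their pool. Its log2 values were 10.47, 10.38 and 10.59 against 10.78, 10.82 and 10.72, with no overlap. Samhd1 fell by 0.29 ± 0.062 (SE) on the log2 scale, or 1.23-fold (limma adjusted p = 0.0340). Dut encodes dUTPase, which destroys dUTP before it can enter DNA and supplies the precursor of thymidylate. Its log2 values were 11.11, 10.96 and 11.07 against 11.35, 11.28 and 11.28, also with no overlap. Dut fell by 0.26 ± 0.054, or 1.19-fold (adjusted p = 0.0340). Without the third array labelled Cre-ERT2 the differences were -0.35 (adjusted p = 0.0162) for Samhd1 and -0.27 (0.0303) for Dut.

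No subunit gene of ribonucleotide reductase, the enzyme that makes deoxynucleotides, passed, which does not show that they were unchanged. Rrm2, the small subunit made in S phase, had log2 values of 13.05, 13.02 and 13.02 against 13.18, 13.13 and 13.11. These lay below the controls, but the difference of -0.11 ± 0.044 (SE) did not pass (limma adjusted p = 0.124). Rrm2b, the small subunit induced by p53, had values of 9.46, 9.25 and 9.31 against 9.64, 9.48 and 9.5, a larger but noisier gap (-0.20 ± 0.069, adjusted p = 0.0954). Rrm1, the large subunit, had -0.067 with overlapping groups. The genes that make thymidine nucleotides, Tyms for thymidylate synthase (-0.035), Dtymk for thymidylate kinase (-0.10) and Dctd for dCMP deaminase (-0.028), did not pass. The median over the 8 genes was -0.11.

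None of the 8 salvage genes passed, and 1, Tk2, was lower at an unadjusted p under 0.05. Tk2, the mitochondrial thymidine kinase, had log2 values of 9.61, 9.64 and 9.80 against 9.94, 9.85 and 9.86. The third array labelled Cre-ERT2 lay close under the controls and the other arrays of its group clearly lower. The difference was -0.19 ± 0.061 (SE, limma adjusted p = 0.0770), and without that array it was -0.25 and passed (0.0245). Cytosolic Tk1, the S phase thymidine kinase, had -0.068 with overlapping groups. Its other probe set gave -0.12, and neither passed.

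For recovery of bases, Hprt, which returns hypoxanthine and guanine, had -0.052 and Aprt, which returns adenine, -0.059. For recovery of nucleosides, Dck, the deoxycytidine kinase, had -0.039, and Dguok, the mitochondrial deoxyguanosine kinase, 0.038 with all 3 arrays labelled Cre-ERT2 above the controls (12.09, 12.06 and 12.08 against 12.04, 12.03 and 12.03). Uck1 and Uck2, the uridine and cytidine kinases, had -0.14 and 0.0051, and the second probe set of Uck2 gave -0.11. The median over the salvage genes was -0.055, and the 8 intervals (95%) together ran from -0.33 to 0.13.

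The 3 genes listed as shared nucleotide kinases gave 0 calls, with 1 lower at an unadjusted p under 0.05. That was Nme1, a nucleoside diphosphate kinase. Its log2 values were 11.58, 11.57 and 11.68 against 11.84, 11.71 and 11.84, without overlap. The difference was -0.19 ± 0.057 (SE, limma adjusted p = 0.0729), and -0.23 (0.0386) without the third array labelled Cre-ERT2. Its neighbour Nme2 had -0.059; the 2 genes are close paralogues, so their probe sets may share signal. Cmpk1, the UMP and CMP kinase, had -0.030.

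In 6 pairs of isoenzymes the change in 1 member relative to the other was taken on each array. Ctps minus Ctps2 was -1.38, -1.33 and -1.10 (labelled Cre-ERT2) and -0.90, -0.84 and -0.79 (controls), a mean change of -0.43 where the SDs of the groups were 0.15 and 0.054. Prps1 minus Prps2 changed by -0.31, Uck1 minus Uck2 by -0.14, Nme1 minus Nme2 by -0.13, Tk1 minus Tk2 by 0.13 and Rrm2 minus Rrm2b by 0.088. In 5 of the 6 pairs the groups did not overlap, Rrm2 and Rrm2b being the exception. The exact two-sided permutation test gave p = 0.1 for each of those 5, the smallest value that 3 arrays against 3 allow, and 0.3 for Rrm2 and Rrm2b (0.12 and 0.3 adjusted over 6 pairs). With that floor the test decides nothing for these pairs, and their values are given as a description. The pairs were taken from the gene list by family after its values had been seen. No share over other gene pairs was taken to set beside the 5 of 6 without overlap. Of all single genes tested, 17.7% had all 3 arrays labelled Cre-ERT2 below all controls and 20.7% above.

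Other genes of nucleotide metabolism, outside the 35, were read from the same fit. Among the 46 tested, 7 fell, 1 rose and the other 38 did not pass. The folate and one-carbon genes, which supply carbon for purine rings and thymidylate, held most of these: of 12 tested, 5 were lower, 0 higher (2 at an unadjusted p under 0.05) and 7 did not pass, with a median of -0.20. The 5 are 41.7% of the list, beside 4.13% of all genes called lower. Shmt1 and Shmt2, the cytosolic and mitochondrial enzymes that take a carbon from serine, fell by 0.27 ± 0.045 (SE) and 0.20 ± 0.048 on the log2 scale (limma adjusted p = 0.0193 and 0.0478). Mthfd1l, which releases formate from mitochondria, fell by 0.21 ± 0.042 (0.0272). Fpgs, which adds glutamates to folate and keeps it in the cell, fell by 0.22 ± 0.046 (0.0340), and Ggh, which removes them, by 0.38 ± 0.075 (0.0287).

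The remaining neighbours showed fewer calls. Of 26 genes of interconversion and breakdown, 2 were lower, 0 higher (2 at an unadjusted p under 0.05) and 24 did not pass; the 2 are 7.69% of the list, near the 4.13% of all genes. Adssl1, which encodes the adenylosuccinate synthase known from muscle, fell by 0.26 ± 0.050 (SE) and Nme4, a mitochondrial nucleoside diphosphate kinase, by 0.23 ± 0.048 on the log2 scale (limma adjusted p = 0.0269 and 0.0329). Nt5c2, a cytosolic nucleotidase, had -0.18 and did not pass (0.0661). Of 8 transport genes, 1 was higher, 0 lower (0 at an unadjusted p under 0.05) and 7 did not pass (12.5% higher, beside 3.5% of all genes). Slc28a2, a sodium-coupled carrier that takes up purine nucleosides, rose by 0.21 ± 0.050 (adjusted p = 0.0426), with log2 values of 10.35, 10.23 and 10.24 against 10.05, 10.08 and 10.06. Slc25a36, a mitochondrial carrier of pyrimidine nucleotides, had 0.20 (adjusted p = 0.0512) and Slc29a3, an equilibrative nucleoside transporter, 0.14 (0.105). Slc28a1, another sodium-coupled carrier, had 0.11 (0.207). Leaving out ERT2 control array 1, 2 or 3, limma called 0, 1 and 0 of the 46, where 0.776%, 1.3% and 2.32% of all genes were called; at an unadjusted p under 0.05, 15, 17 and 17 were lower and 5, 7 and 6 higher. Leaving out the array labelled Cre-ERT2 1, 2 or 3 instead gave 0, 5 (10.9%) and 20 (43.5%), with 15 lower and 7 higher unadjusted in the first of these fits. The count over all genes moved in the same order, to 0.91%, 3.51% and 20.3%.

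**Figure D4:**
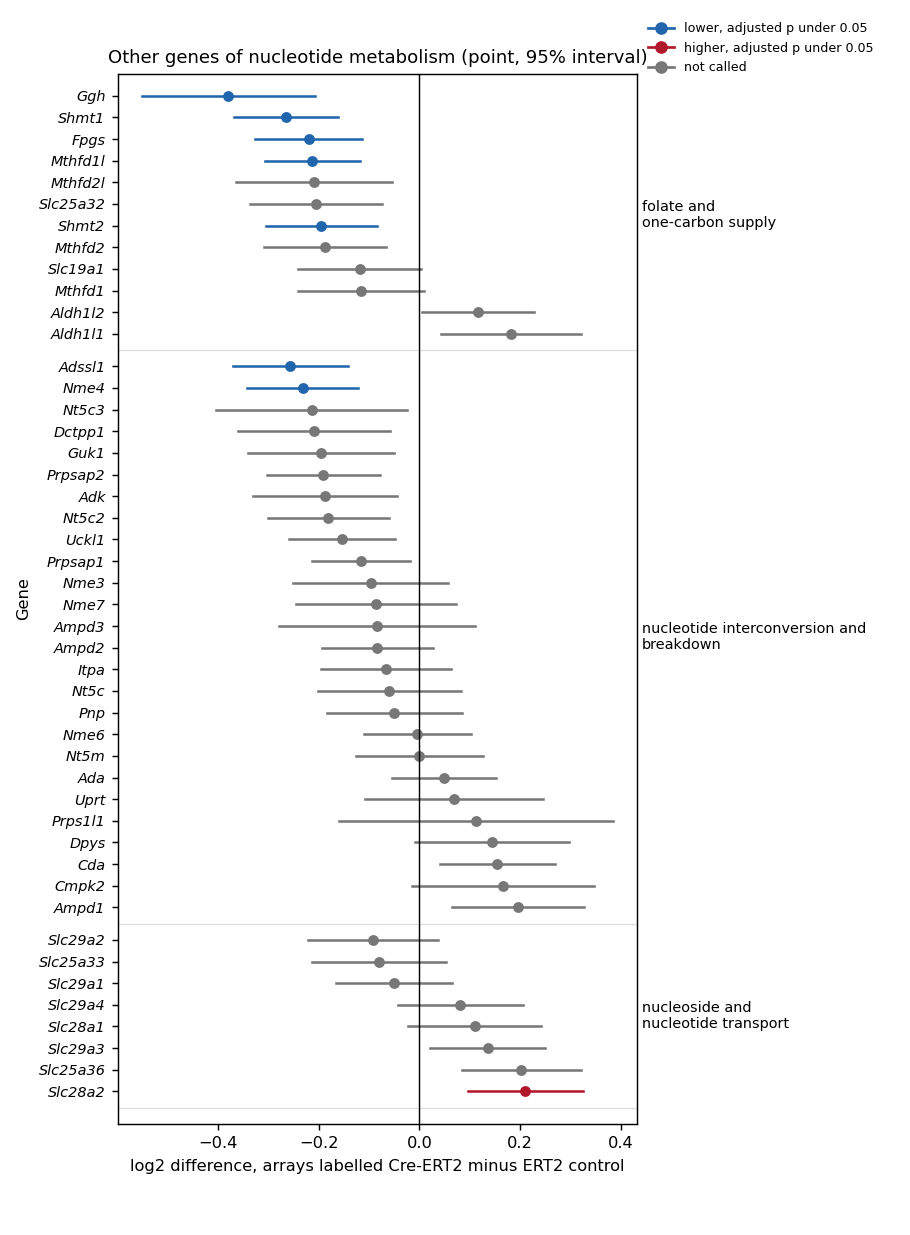
Log2 difference between the arrays labelled Cre-ERT2 and the ERT2 control arrays (x axis) for 46 other genes of nucleotide metabolism (y axis), grouped by function; points are estimates from 3 arrays a group and lines are 95% intervals of the limma fit. Of the 12 folate and one-carbon genes 10 lie left of 0 and 5 are called lower, and Slc28a2 is the single gene called higher.

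Genes of DNA replication, of MYC and ribosome biogenesis and of the p53 response were read from the same fit, and most did not pass. Of 28 S phase and replication genes, 3 were lower (Fen1, -0.44, Rfc3, -0.30, and Gins1, -0.30), 0 were higher (0 at an unadjusted p under 0.05) and 25 did not pass, with a median of -0.060. The 3 are 10.7% of the list, beside 4.13% of all genes. Of 19 genes of MYC and ribosome biogenesis, 4 were lower (Myc itself, -0.22, Rrp9, -0.25, Wdr12, -0.21, and Nop58, -0.19), 0 higher (0 unadjusted) and 15 did not pass, with a median of -0.098; the 4 are 21.1% of the list. Of 11 p53 targets, 2 were higher (Sesn2, 0.30, and Trp53inp1, 0.20), 0 lower (0 unadjusted) and 9 did not pass, with a median of 0.090; the 2 are 18.2% of the list, beside 3.5% of all genes called higher. On each array the median deviation of the purine genes from their 6-array means was 0.036, 0.054 and 0.024 in the controls and -0.029, -0.048 and -0.022 where Cre-ERT2 was labelled. That of the S phase genes was 0.039, 0.040 and 0.015 against -0.042, -0.048 and -0.018. Both were lowest in the second array labelled Cre-ERT2. The part of cell cycle or MYC in the nucleotide gene differences was not tested.

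**Figure D5:**
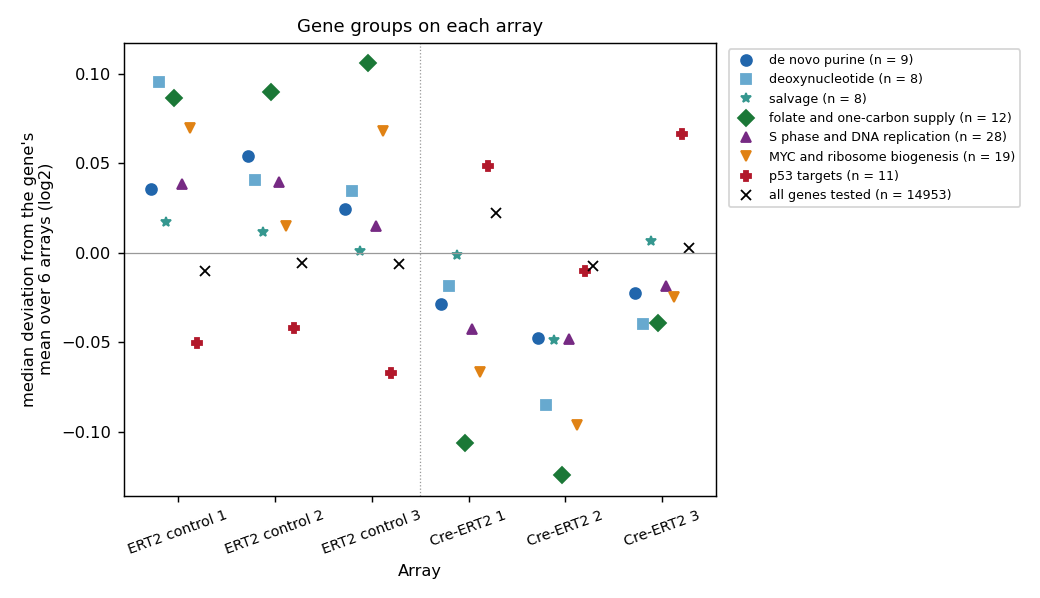
Median deviation of each gene group from its genes' means over 6 arrays (y axis, log2) on each array (x axis); n is the number of genes in a group. Purine, deoxynucleotide, folate, S phase and MYC groups lie above 0 on the 3 ERT2 control arrays and below 0 on the 3 arrays labelled Cre-ERT2, and the median of all genes tested stays between -0.010 and 0.023.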

How the data were processed

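RNA of 6 samples was measured on mouse Affymetrix arrays. The deposited values are log2 expression, covering 35556 probe sets an array. The submitters' processing notes list RMA and Partek 6.5 but not what each did or with which settings. They were used as deposited, with probe-level files not used here. Build and probe positions are not given in the sources used here; coordinates are those of RefSeq (GRCm38.p6). The array's annotation gave 1 symbol to 21789 probe sets, several to 1621 and none to 12146; 21698 Entrez identifiers matched RefSeq and 0 symbols were updated. The probe set with the highest mean stood for a gene (2 of the 35 genes had more than 1), and genes under the 25th percentile of mean (log2 7.35) were left out, leaving 14953. Groups and replicate numbers came from sample titles.

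The test was limma 3.58.1 (R 4.3.3; lmFit, eBayes at default settings; two-sided). P-values were adjusted by Benjamini-Hochberg across the 14953 genes, and an adjusted p under 0.05 was called. On simulated data for this comparison over 14953 genes, 54 of 100 genes changed by 0.3 and 88 of 100 changed by 0.5 on the log2 scale were recovered, with 5 false calls. The simulated noise was independent for each gene and array, with no shift shared by the genes of an array. Its false calls therefore need not hold for the real arrays. Precision is limited by the number of arrays, 3 a group. Genes and lists were chosen with earlier results of these data known. The rule for named genes took all 35 genes, Inpp5d, called nucleotide metabolism genes outside the 35 and otherwise the 4 of each such list with the smallest p, and up to 4 called genes of the S phase, MYC and p53 lists. Called cell type markers were named outside this rule. Python 3.11.15, pandas 2.3.3 and matplotlib 3.10.9 made tables and figures.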

Additional observations from a re-analysis of the deposited data

How the results depend on the processing

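The 5 genes that fell (Ppat, Ctps, Prps1, Dut and Samhd1) kept their direction in every setting run, and in 560 refitted values of the 35 genes 492 kept direction and call, 35 lost the call, 18 gained it and 15 changed sign. Genes called over the whole array, nucleotide synthesis genes and other nucleotide genes, 1140, 5 and 8 as reported, numbered 437, 2 and 1 with dim genes kept, 3020, 12 and 20 after centring, 2147, 8 and 16 with trend and robust estimation, 3993, 8 and 23 with array weights, and 375, 1 and 1 over all probe sets. They numbered 143, 0 and 0 at an adjusted p under 0.01 and 683, 3 and 2 with a 1.2-fold minimum, and the filter at the 50th percentile gave 14 other nucleotide genes. With 1 array left out the ranges were 116 to 3042, 0 to 8 and 0 to 20. The replicate number as a block gave 147, 0 and 0 (limma; 9 of the 35 genes and 17 lower and 6 higher of the other nucleotide genes at an unadjusted p under 0.05). Deviations of same-numbered arrays from their group means correlated with r = 0.069, -0.17 and -0.40 across genes. The highest r was 0.43, of ERT2 control array 3 with the second array labelled Cre-ERT2. The next was 0.28, of control array 1 with the third. Deviations of 3 arrays from their group mean sum to 0, so these values cannot decide whether the numbers pair samples. The labels do not say either. Centring moved the share of calls that were higher from 45.9% to 7.38%.

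The sign changes were all in genes without a call. After centring, Prps2 became -0.038, Impdh1 -0.077, Adss -0.071, Cad -0.0087, Ctps2 -0.025, Dguok -0.064 and Uck2 -0.097. Impdh1 was -0.0033 with array weights and -0.011 without the third array labelled Cre-ERT2. Gmps was 0.0060 and Umps 0.00046 after loess, Gmps was 0.013 without ERT2 control array 2 and 0.0035 without the third array labelled Cre-ERT2, and Uck2 was -0.051 as the mean of its probe sets and -0.0069 without the first array labelled Cre-ERT2. With 1 array left out Impdh1 ranged from -0.011 to 0.049, Gmps from -0.044 to 0.013 and Uck2 from -0.0069 to 0.021. The causes were not tested.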
